A study of Mus musculus with 7 samples.

Results

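Peroxins and peroxisomal enzymes were examined in the retinal pigment epithelium (RPE), the pigmented cell layer that takes up shed photoreceptor outer segments, of mice with and without LC3b. The 34 genes were listed by name and by role, with earlier results of these data known: 11 peroxins of assembly and protein import, 2 of the Pex11 type, 4 membrane transport proteins, 11 genes of peroxisomal beta-oxidation, 2 of alpha-oxidation, 3 of ether lipid synthesis and the peroxide-degrading enzyme catalase. All 34 were found among the 52740 identifiers of the count table, and all 34 were among the 16990 genes with enough counts to be tested. They lie on 16 chromosomes.

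Messenger RNA was sequenced from 4 WT mice of strain C57BL6/J, 3 females (F1, F2, F3) and 1 male (M1), and from 3 LC3b-/- mice, 2 females (F1, F3) and 1 male (M), with 1 library per mouse. All mice were labelled 24 months old, and no treatment was named. The knockout strain carries a targeted Map1lc3b allele in every cell on a mixed B6 and 129P2 background, so that genotype and strain background cannot be told apart. Sample names also hold a number whose meaning is not given in the sources used here. It differs between the genotypes, and between the male and the female knockouts, and cannot be told apart from either difference. Sheets of RPE were shaken from trypsin-treated eyecups, no step selected single cells, and the comparison addresses which transcripts differ in aged RPE that lacks LC3b. Counts per library ran from 24495952 to 34819720 in WT and from 26704461 to 35616134 in LC3b-/-. Map1lc3b, the targeted gene, followed the labels, with 104 to 130.1 CPM (counts per 1000000 of the scaled library total) in WT and 6.76 to 8.33 CPM in LC3b-/-.

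Peroxisomes are single-membrane organelles that shorten very long and branched fatty acids, begin the synthesis of ether lipids and break down hydrogen peroxide. Their enzymes are made in the cytosol and are imported in the folded state by peroxins, and Pex11 proteins elongate the membrane before it divides. RPE cells digest lipid-rich outer segments every day, and peroxisomes take part in the disposal of the fatty acids.

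Many matrix enzymes carry their import signal in the last residues of the protein, which the receptor Pex5 binds, so the ends of the coding sequences are shown for enzymes that recur below. Each line is the end of the reading frame of the canonical transcript in the GENCODE vM39 annotation of GRCm39, read 5′ to 3′, with the last 3 codons in capitals and the stop codon after them.
Scp2: cagcttcagccgggcaaaGCTAAGCTGtga
Pecr: gaatcttttaagaagaaaGCCAAGCTCtaa
Gnpat: ataggaaaaccagccactGCAAAACTAtaa
Crot: atacagctgatgaacaccGCTCATCTTtag
Ehhadh: ttggcaggaccccatagcAGCAAACTGtga
Acot8: aagcctcaggtgtcagagAGTAAGCTAtag
Cat: atggctgcgaagggaaaaGCTAACCTGtaa
Amacr: gaaagtgataagctaaaaGCCAATCTCtga
The motif searched was a serine codon (TCN, AGC or AGT), a lysine codon (AAA or AAG) and a leucine codon (CTN, TTA or TTG) directly before the stop, on the coding strand. Ehhadh and Acot8 held it, which is 5.88% of the 34 members against 0.0939% of the 14909 protein-coding genes tested. A wider form also took alanine or cysteine codons (GCN, TGC or TGT) at the first place, arginine codons (CGN, AGA or AGG) or histidine codons (CAC or CAT) at the second and ATG at the third. Scp2, Pecr, Gnpat, Crot and Hsd17b4 were added by it, which brought the members to 20.6% against 0.537% of all protein-coding genes tested. Cat and Amacr ended in codons outside both forms.

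Promoters of 3 members that recur below are printed here. The set of RefSeq promoters used here covered 28 members and lacked 6. It held 33 promoters of members on GRCm38.p6, a build other than that of the counts, each running from 250 bases before to 50 bases after the start. The core site AGGTCA of nuclear receptors such as PPARα, on either strand, was present in 12.1% of the members' promoters and in 16.3% of all 32851. Its direct repeat AGGTCANAGGTCA was in none of the members' promoters and in 0.0396% of all, and the looser AGGNCANAGGNCA in none and in 0.381%. Pex11a had no core site, while Scp2 and Cat had 1 each, in capitals. The other members with a core site were Pex11g and Phyh, whose promoters are not printed. These matches are descriptions of letters in a window, and a role of such sites in the members' levels was not tested.
Pex11a, chr7:79743082-79743381, minus strand: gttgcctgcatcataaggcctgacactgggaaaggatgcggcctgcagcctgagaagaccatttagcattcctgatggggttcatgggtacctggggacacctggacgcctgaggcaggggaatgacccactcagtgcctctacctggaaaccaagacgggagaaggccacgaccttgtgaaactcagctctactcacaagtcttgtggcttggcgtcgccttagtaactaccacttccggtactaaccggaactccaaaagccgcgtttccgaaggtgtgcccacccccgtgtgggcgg
Scp2, chr4:108118498-108118797, minus strand: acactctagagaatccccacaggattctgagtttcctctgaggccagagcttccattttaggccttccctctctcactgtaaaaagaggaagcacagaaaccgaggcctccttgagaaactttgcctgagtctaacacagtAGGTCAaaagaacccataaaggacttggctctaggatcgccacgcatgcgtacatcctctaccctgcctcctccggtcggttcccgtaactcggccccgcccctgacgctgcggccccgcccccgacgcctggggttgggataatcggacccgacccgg
Cat, chr2:103485104-103485403, minus strand: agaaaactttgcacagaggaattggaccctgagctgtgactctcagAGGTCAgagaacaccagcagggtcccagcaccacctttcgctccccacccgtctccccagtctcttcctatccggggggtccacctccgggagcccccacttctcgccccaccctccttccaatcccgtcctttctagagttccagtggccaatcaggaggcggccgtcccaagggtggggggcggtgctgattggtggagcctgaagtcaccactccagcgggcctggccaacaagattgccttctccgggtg

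Across the 34 genes, levels were lower in LC3b-/- RPE for 27 and higher for 7, with Far1, at 0.00 on the log2 scale, counted among the latter. The median log2 fold change of LC3b-/- over WT was −0.33, where the median of all 16990 genes tested was 0.01. No member was called differentially expressed by edgeR's quasi-likelihood test (adjusted p under 0.05 and at least 1.5-fold), a criterion that 0.235% of all genes tested passed, and the smallest adjusted p of a member was 0.058, for Pex11a. Before adjustment, 15 members (44.1%) were lower at a p under 0.05, against 10.6% of all genes, and 1 member, Agps, was higher (2.94%), against 13.5%. The libraries of the genotypes did not overlap for 15 members with LC3b-/- below WT, against 10.3% of all genes, and for 3 with LC3b-/- above WT, against 12%.

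**Figure D1:**
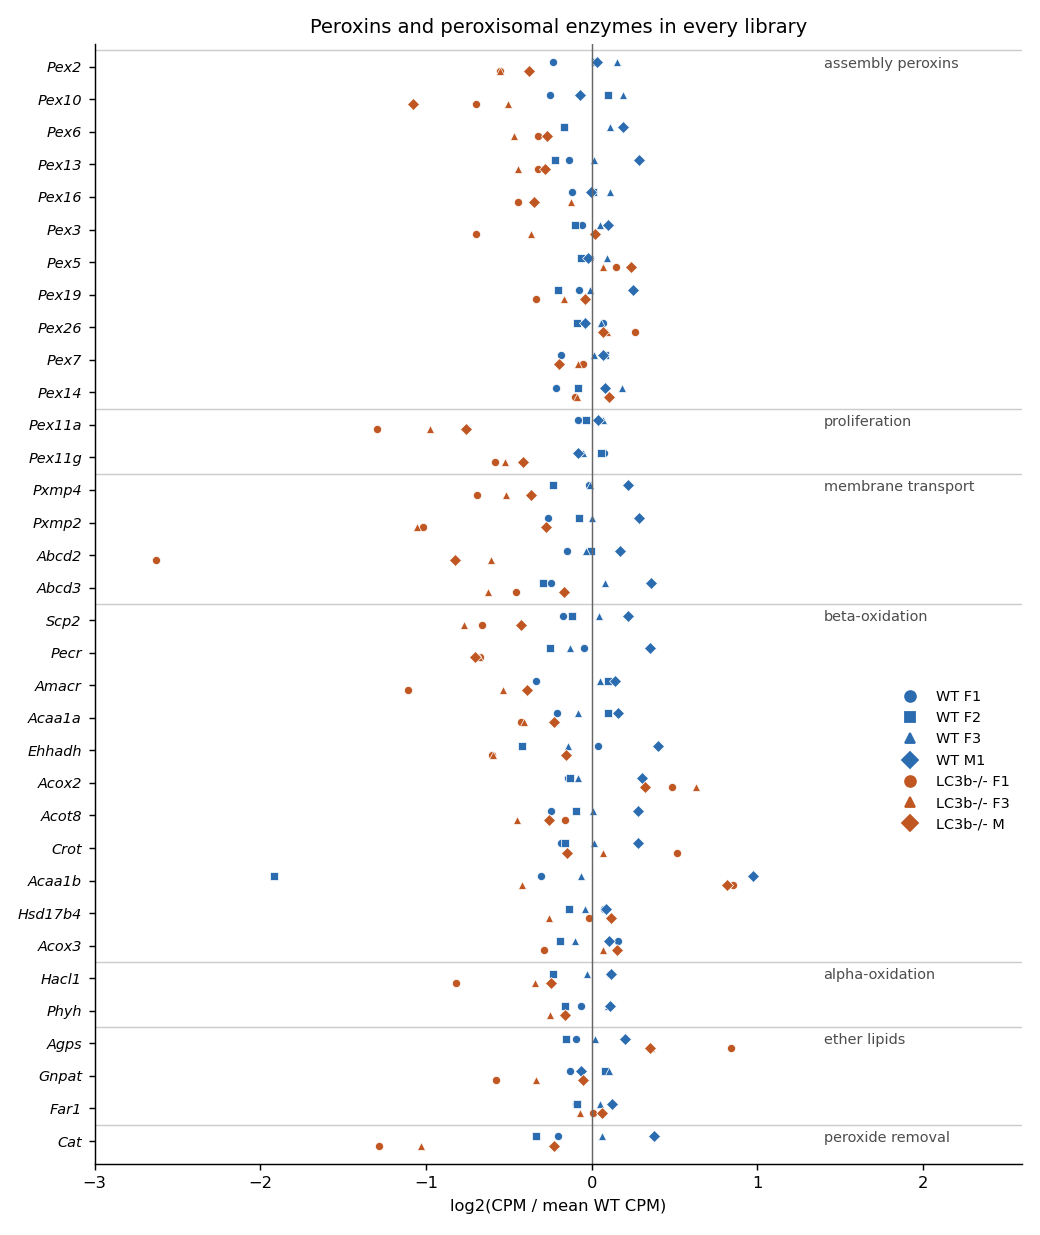
Each point is 1 library, placed at the log2 of its CPM over the mean CPM of the WT libraries, with WT in blue and LC3b-/- in orange, for the 34 genes ordered by role. Most orange points lie left of 0, and Pex11a and Agps are examples of genes whose genotypes do not overlap.

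The mice of a genotype did not contribute equally. Relative to the WT mean, the median member stood at −0.12, −0.10, 0.04 and 0.16 on the log2 scale in the libraries F1, F2, F3 and M1 of WT, and at −0.43, −0.38 and −0.20 in LC3b-/- F1, F3 and M. For the median of all genes tested, the values in the same order were 0.03, −0.01, 0.02 and −0.02 in WT and 0.02, 0.04 and 0.04 in LC3b-/-. LC3b-/- F1 had the lowest level of the knockout libraries for 16 members, LC3b-/- F3 for 11 and LC3b-/- M for 7. These counts were not made over all genes. Without LC3b-/- F1, 8 members were lower at an unadjusted p under 0.05 in edgeR, where 5.74% of all genes tested were, and without WT M1, 9 members were, against 6.53%. Without LC3b-/- M the count was 17, against 13.1% of all genes. The median coefficient of variation between the WT libraries was 11.9% for the members and 19.6% for all genes tested, and it ran from 4.71% for Pex11a to 71.0% for Acaa1b.

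Markers of RPE itself were mostly lower in the same libraries. Of 12 RPE markers, 11 were lower in LC3b-/- and 6 of them at an unadjusted p under 0.05 in edgeR (10.6% of all genes), with a median log2 fold change of −0.81. Their summed level was 32500 to 50000 CPM in WT and 14900 to 30000 CPM in LC3b-/-. Among the knockout libraries it was lowest in F1 and highest in M. Best1, an RPE channel gene, was near 0 in every library (0.861 to 1.71 CPM), while Rpe65, Rlbp1 and Ttr were abundant. In bulk RNA, fewer RPE cells and less RNA per RPE cell cannot be told apart, and the part of RPE content in the members' levels was not tested.

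Markers of other tissues also differed in level between the libraries. All 10 markers of stratified epithelium were higher in LC3b-/-, 7 of them at an unadjusted p under 0.05 in edgeR (13.5% of all genes). Their sum was 9.92 to 2470 CPM in WT and 3460 to 24600 CPM in LC3b-/-, with the highest value in LC3b-/- F1, and Dsg3 was at 0 in WT F3. The 6 endothelial markers summed to 181 to 574 CPM in WT and to 690.0 to 748 CPM in LC3b-/-, the 6 fibroblast markers to 328 to 1370 and 836 to 1840 CPM, and the 8 macrophage markers to 379 to 543 and 259 to 478 CPM. The macrophage markers did not move together, with 6 lower and 2 higher in LC3b-/-. At an unadjusted p under 0.05 in edgeR, 1 of them was higher and 0 were lower. Müller glia markers summed to 9540 to 12300 CPM in WT and 8190 to 9140 CPM in LC3b-/-, mostly from Apoe and Glul. The sum thus follows few genes and does not measure Müller glia content. Of the 6 markers, 4 were lower and 2 higher, from −0.51 to 0.89 on the log2 scale. None had an unadjusted p under 0.05 in edgeR. The 10 photoreceptor markers ran from 24.3 to 20200 CPM in WT and from 43.4 to 6990 CPM in LC3b-/-, so that the genotypes overlapped. Erythrocyte, skeletal muscle and lens markers summed to at most 662, 31.7 and 2.69 CPM in any library. The part of these cells in the members' levels was not tested.

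**Figure D2:**
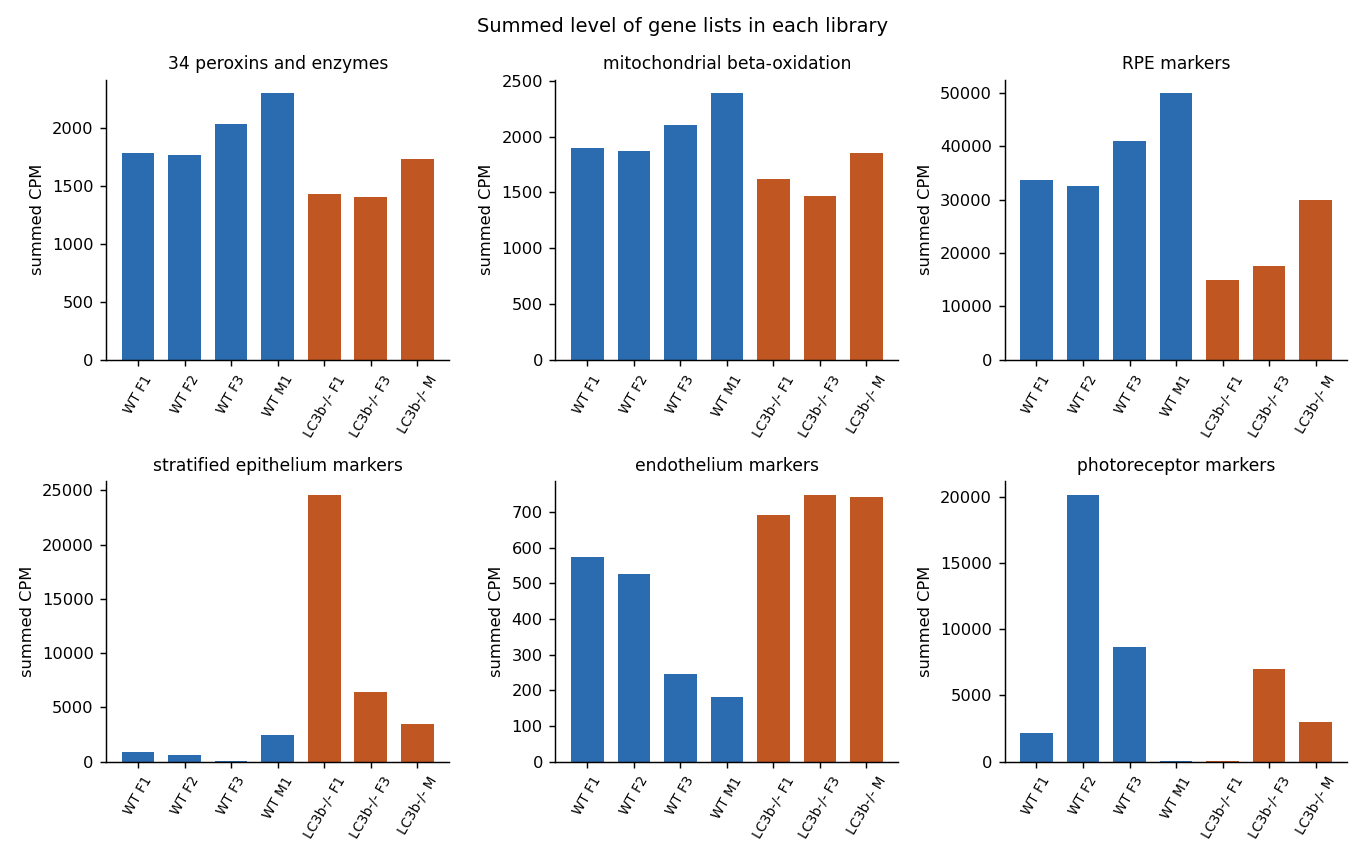
Bars give the summed CPM of 6 gene lists in each library, WT in blue and LC3b-/- in orange, with each vertical axis starting at 0. The members run from 1770 to 2300 CPM in WT and from 1400 to 1730 CPM in LC3b-/-. LC3b-/- M is the highest knockout library for both the members and the RPE markers. The lowest differs, being LC3b-/- F3 for the members (1400 CPM, with 1430 in F1) and LC3b-/- F1 for the RPE markers (14900 CPM, with 17600 in F3).

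Per kilobase of the canonical transcript, the scale on which levels of different genes were compared, Cat stood highest at 110 CPM per kb over the 7 libraries, ahead of Scp2 at 102, Phyh at 82.2, Acaa1a at 57.4 and Abcd3 at 49.6. In LC3b-/- the first 3 lay close together, with means of 78.6 for Cat, 78.6 for Scp2 and 76.0 for Phyh, where the WT means were 134, 120 and 86.8 CPM per kb. Acaa1b, Acox2 and Abcd2 were the lowest, at 0.33, 0.633 and 0.92 CPM per kb over all libraries. Pex19 was the highest of the assembly peroxins at 30 CPM per kb, and Agps of the ether lipid genes at 16.2 over all libraries, although in WT alone Gnpat stood above it, at 16.8 against 13.6. Acaa1a and Acaa1b share 1428 bases at 96.6% identity, so that reads could be divided between them, yet the counts went almost wholly to Acaa1a.

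**Figure D3:**
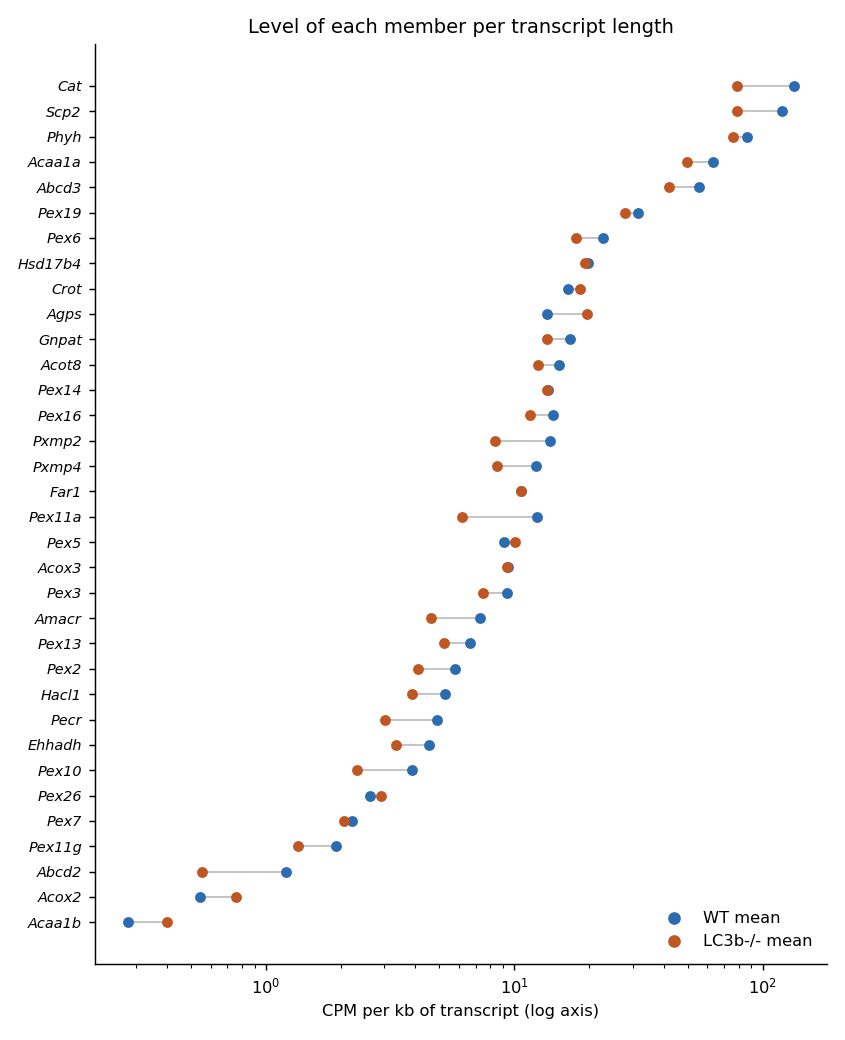
Mean CPM per kb of transcript is plotted on a log axis for each member, WT in blue and LC3b-/- in orange, ordered by the mean over all 7 libraries. Cat, Scp2 and Phyh head the list, and their LC3b-/- means lie between 76.0 and 78.6 CPM per kb.

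Pex11a, a membrane-elongating peroxin at chr7:79385705-79392879 (GRCm39), had the smallest p of the members. Its levels were 26.1, 27.0, 29.0 and 28.4 CPM in F1, F2, F3 and M1 of WT and 11.3, 14.1 and 16.3 CPM in LC3b-/- F1, F3 and M. Values of the other genes follow the same order of libraries. The highest knockout library thus lay well below the lowest WT library, and the log2 fold change was −0.99 (SE 0.15), or 50.3% of the WT level (edgeR adjusted p = 0.058). Pex11g, a second gene of this type, had 5.82, 5.76, 5.35 and 5.23 CPM in WT and 3.71, 3.86 and 4.17 CPM in LC3b-/-. These also did not overlap, at a log2 fold change of −0.50 (SE 0.18, edgeR adjusted p = 0.159). Pex11g shares 1398 bases with the gene model Gm44775 on the opposite strand, and whether strand was used in counting is not given in the sources used here.

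Among the 11 assembly peroxins, 9 were lower in LC3b-/- and 2 higher, with a median log2 fold change of −0.30. Pex2 and Pex10 belong to the ubiquitin ligase that recycles the import receptors. Pex10 had 7.99, 10.2, 10.9 and 9.07 CPM in WT and 5.88, 6.72 and 4.52 CPM in LC3b-/-, a log2 fold change of −0.74 (SE 0.21, edgeR adjusted p = 0.112). Pex2 had 33.1, 39.5, 43.2 and 39.7 CPM in WT against 26.5, 26.5 and 29.9 CPM, with a log2 fold change of −0.49 (SE 0.13, edgeR adjusted p = 0.099). Neither gene overlapped between genotypes.

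Pex6 is one of the ATPases that pull the used receptor out of the membrane, and Pex26 anchors them there. Pex6 had 65.0, 65.0, 78.8 and 83.3 CPM in WT and 58.4, 52.8 and 60.7 CPM in LC3b-/-, a log2 fold change of −0.35 (SE 0.13, edgeR adjusted p = 0.168), with a narrow gap between the genotypes. Pex26 went the other way by a small amount, with a log2 fold change of 0.14 (edgeR adjusted p = 0.537) and all knockout libraries above WT. Of the docking peroxins, Pex13 had a log2 fold change of −0.35 (edgeR adjusted p = 0.205) without overlap, and Pex14 one of −0.03 (adjusted p = 0.927).

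None of the cargo receptors and membrane-insertion factors had an unadjusted p under 0.05. Pex5, which binds the signal at the end of most matrix enzymes, had a log2 fold change of 0.15 (edgeR adjusted p = 0.379), and Pex7, the receptor for the signal near the start of a few others, one of −0.11 (adjusted p = 0.618). Pex19, the chaperone of peroxisomal membrane proteins and the peroxin of assembly with the highest level per length, had 58.5, 53.6, 61.2 and 73.4 CPM in WT and 48.9, 54.9 and 60 CPM in LC3b-/-. These libraries overlapped, and the log2 fold change was −0.18 (SE 0.14, edgeR adjusted p = 0.463). Pex3 and Pex16, its partners in the membrane, had log2 fold changes of −0.32 (adjusted p = 0.318) and −0.30 (adjusted p = 0.213), the first with overlap and the second without.

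All 4 membrane transport genes were lower in LC3b-/-, with a median log2 fold change of −0.63. Pxmp2, a channel of the peroxisomal membrane, had 29.5, 33.5, 35.3 and 43.1 CPM in WT and 17.5, 17.0 and 29.2 CPM in LC3b-/-. The male knockout library nearly reached WT F1 while both females lay far below, and the log2 fold change was −0.74 (SE 0.23, edgeR adjusted p = 0.130). Pxmp4, another membrane protein, had 34.2, 29.3, 34.3 and 40.3 CPM in WT against 21.3, 24.1 and 26.7 CPM, without overlap, at a log2 fold change of −0.52 (SE 0.14, edgeR adjusted p = 0.109).

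Abcd2 and Abcd3 carry fatty acyl-CoA into the peroxisome. Abcd3, with the highest level per length of the transport genes, had 178, 173, 223 and 271 CPM in WT and 154, 137 and 188 CPM in LC3b-/-. The genotypes overlapped through LC3b-/- M, and the log2 fold change was −0.40 (SE 0.20, edgeR adjusted p = 0.264). Abcd2, singled out after its values were seen because its log2 fold change of −1.11 (SE 0.44) was the lowest of the 34, had 6.5, 7.21, 7.04 and 8.11 CPM in WT and 1.17, 4.74 and 4.08 CPM in LC3b-/-. LC3b-/- F1 lay far below the other knockout libraries, and the edgeR adjusted p was 0.184. Without that library the log2 fold change was −0.71 and no longer the lowest, Pex11a being at −0.87.

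Beta-oxidation genes were mixed: 8 of 11 were lower and 3 higher, with a median log2 fold change of −0.29. Scp2, which encodes a thiolase for branched chains and the sterol carrier protein, lies at chr4:107901025-108002195 (GRCm39). Its levels were 284, 295, 329.7 and 372 CPM in WT and 202, 188 and 238 CPM in LC3b-/-. All knockout libraries lay below WT, at 65.4% of the WT level (log2 fold change −0.61, SE 0.15, edgeR adjusted p = 0.0983). A pseudogene, Scp2-ps2, shares 475 bases with Scp2 at 99.8% identity, and summing both left the log2 fold change at −0.61. Gm67972, a non-coding model that shares 1388 bases with Scp2 at 99.6% identity, was not analysed here.

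Pecr, a reductase of unsaturated acyl-CoA, had 7.90, 6.84, 7.45 and 10.4 CPM in WT and 5.11, 5.09 and 4.99 CPM in LC3b-/-. The knockout libraries were nearly alike, and the log2 fold change was −0.68 (SE 0.20, edgeR adjusted p = 0.118). Amacr, the racemase that prepares branched chains for oxidation, had 14.8, 20, 19.3 and 20.6 CPM in WT against 8.66, 12.9 and 14.2 CPM, with a log2 fold change of −0.64 (SE 0.21, edgeR adjusted p = 0.138). WT F1 and LC3b-/- M were close to each other for this gene. Acaa1a, the straight-chain thiolase of the last step, had 98.8, 122, 108 and 128 CPM in WT and 85.0, 85.9 and 97.6 CPM in LC3b-/-, a log2 fold change of −0.35 (SE 0.13, edgeR adjusted p = 0.164) with almost no gap between the genotypes.

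None of the other 7 beta-oxidation genes had an unadjusted p under 0.05. Hsd17b4, the bifunctional enzyme for most peroxisomal substrates, had a log2 fold change of −0.04 (edgeR adjusted p = 0.858), while Ehhadh, the other bifunctional enzyme, had one of −0.43 (adjusted p = 0.292). Acox3, an oxidase of branched chains, stood at −0.01 (adjusted p = 0.976) and Acox2, an oxidase of bile acid precursors with at most 2.46 CPM, at 0.48 (adjusted p = 0.312). Crot, which moves shortened chains onto carnitine, had a log2 fold change of 0.17 (adjusted p = 0.61), which turned to −0.04 without LC3b-/- F1. Acot8, a thioesterase, had one of −0.29 (adjusted p = 0.318). Acaa1b, at 0.51 (adjusted p = 0.67), had at most 0.923 CPM in any library.

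In alpha-oxidation, which removes the first carbon of phytanic acid, both genes had lower means in LC3b-/-. Phyh, the hydroxylase, had 133, 124, 149 and 150.3 CPM in WT and 124, 117 and 125 CPM in LC3b-/-. These libraries overlapped, and the log2 fold change was −0.19 (SE 0.11, edgeR adjusted p = 0.333). Hacl1, the lyase of the next step, had a log2 fold change of −0.45 (edgeR adjusted p = 0.195) without overlap. It shares 1150 identical bases with the read-through model Gm49387, and summing both, an alternative chosen after seeing the data, gave −0.47.

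Ether lipid genes held the one member that was higher at an unadjusted p under 0.05. Agps, the second enzyme of the pathway, at chr2:75662455-75761694 (GRCm39), had 34, 32.5, 36.7 and 41.6 CPM in WT and 64.8, 46.4 and 46.3 CPM in LC3b-/-. All knockout libraries lay above WT, and LC3b-/- F1, the library with the most stratified epithelium markers, was the highest. The log2 fold change was 0.54 (SE 0.16, edgeR adjusted p = 0.120), or 145% of WT, and it was 0.35 without LC3b-/- F1. Gnpat, the first enzyme, had a log2 fold change of −0.30 (adjusted p = 0.249), and Far1, which supplies the fatty alcohol, had 51.2 to 59.4 CPM in WT and 51.9 to 56.9 CPM in LC3b-/-, with a log2 fold change of 0.00.

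Cat encodes catalase, which breaks down the hydrogen peroxide that the oxidases release, and lies at chr2:103284194-103316185 (GRCm39). Its levels were 305, 277, 366 and 455 CPM in WT and 144, 172 and 299.8 CPM in LC3b-/-. The female knockouts lay below all WT libraries, and the male knockout lay above WT F2. The log2 fold change was −0.77 (SE 0.30, edgeR adjusted p = 0.175), and it moved to −1.15 without LC3b-/- M and to −0.57 without LC3b-/- F1.

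**Figure D4:**
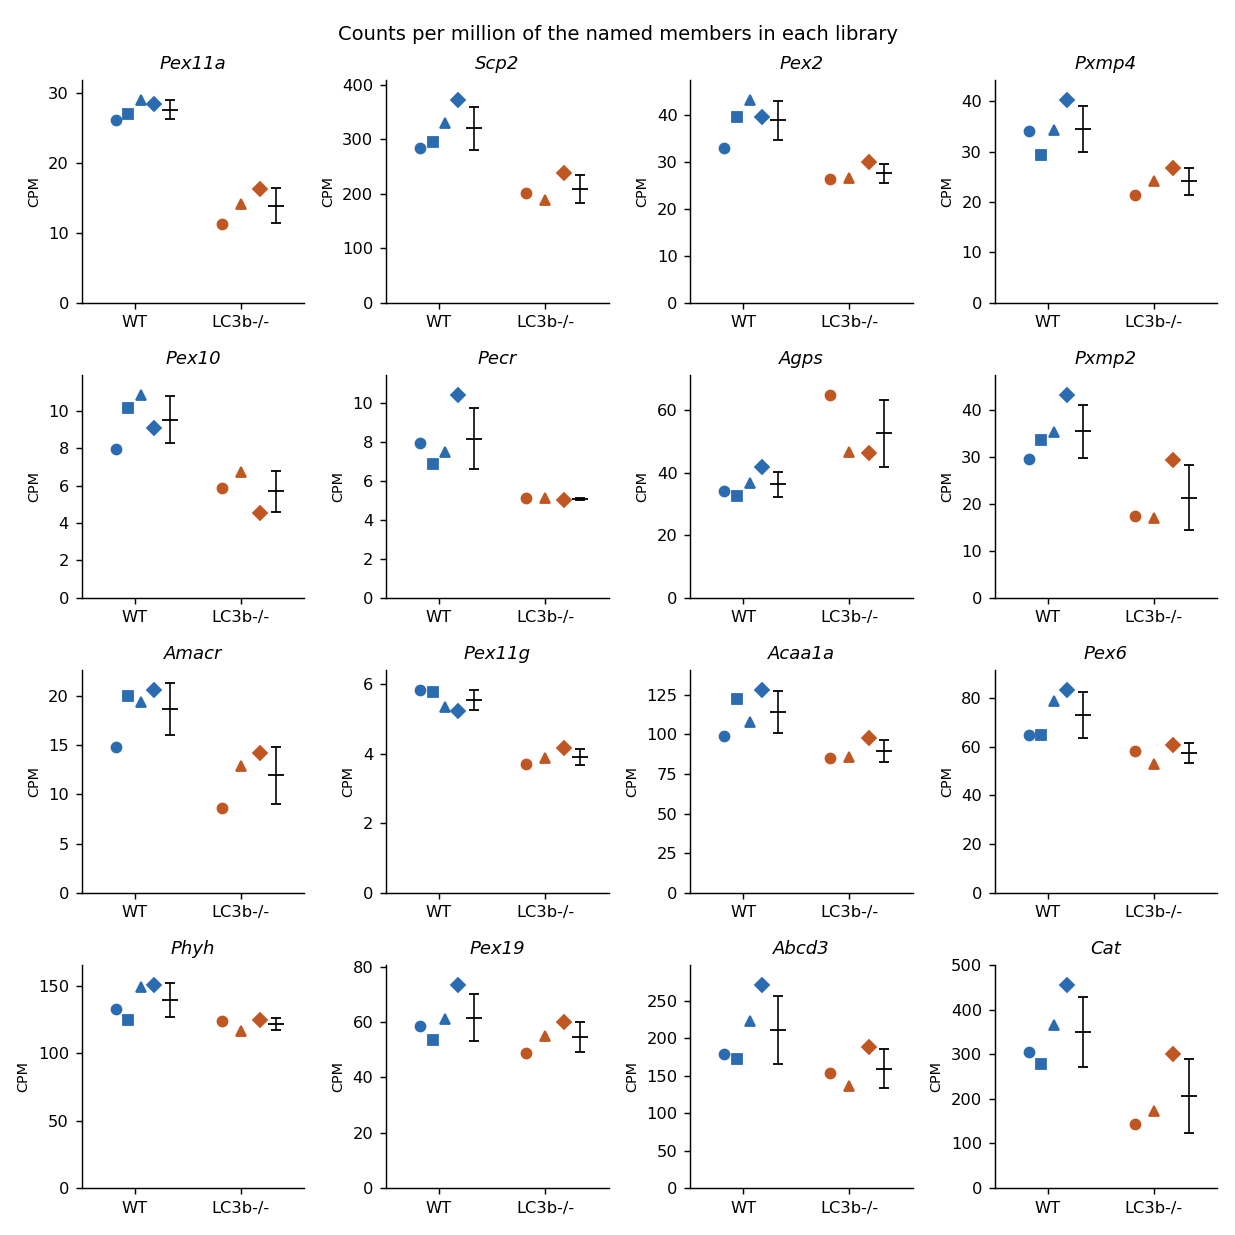
CPM of 16 members in each library, with WT in blue, LC3b-/- in orange, circles for F1, squares for F2, triangles for F3 and diamonds for males, on axes that start at 0. Black bars give mean ± SD (n = 4 WT and 3 LC3b-/-). The panels from Pex11a to Pex6 were chosen because the genotypes do not overlap in them. Those of Phyh, Pex19, Abcd3 and Cat were chosen for level per length, and there the genotypes overlap.

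**Figure D5:**
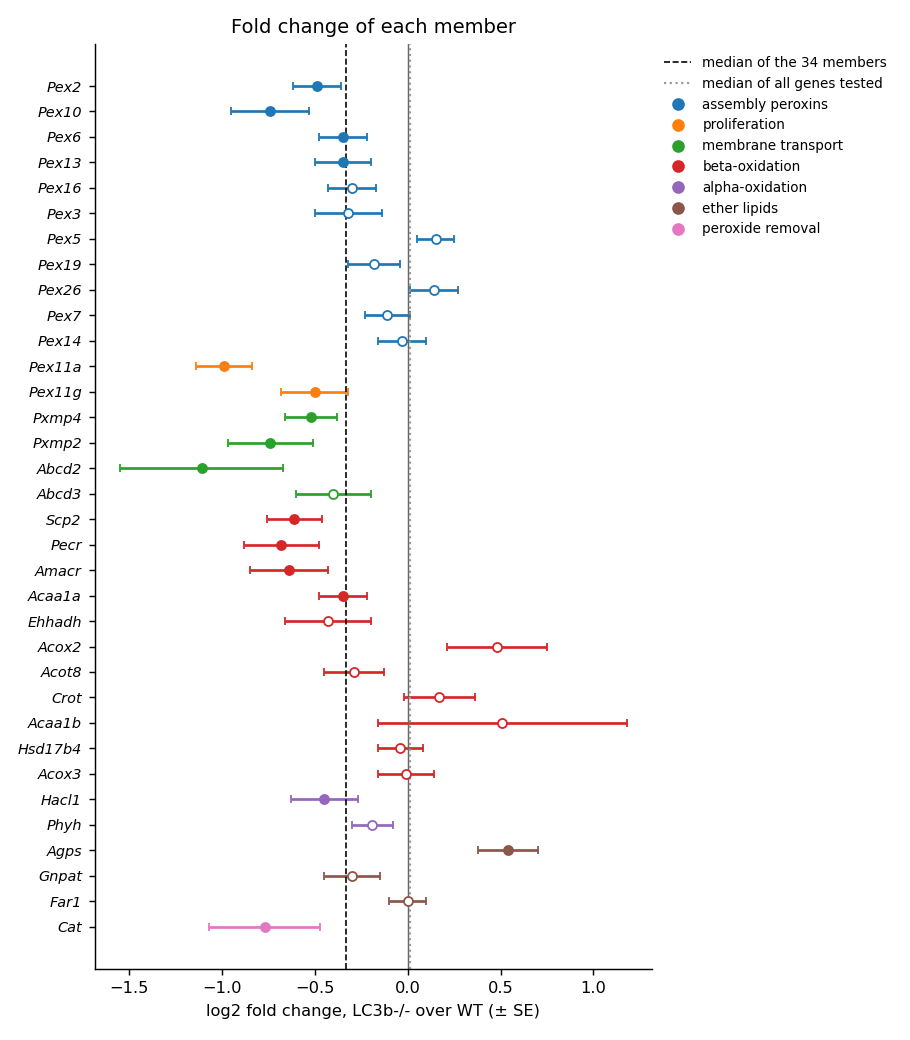
Log2 fold changes of LC3b-/- over WT are plotted for the 34 genes, coloured by role, with an SE derived from the edgeR fit. Points are filled where the unadjusted p is under 0.05. The dashed line at −0.33 is the median of the members and the dotted line at 0.01 that of all genes tested, and Abcd2 and Pex11a lie furthest to the left.

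Calls of members depended on the test. DESeq2, the program the study itself used, called 5 of the 34 members with its Wald test, where it called 9.41% of all genes with an adjusted p. They were Pex11a (DESeq2 adjusted p = 6.04e-06), Scp2, Pex10, Pecr and Pxmp2, all lower. Over all 16 alternatives the adjusted p of Pex11a ran from 6.04e-06 to 0.204. Pex11a alone was called by limma's voom with sample weights (0.730% of all genes), by edgeR without a filter on low counts (0.271%) and by edgeR without WT F1 (1.28%). Pex11a and Pxmp2 were called with sex as a covariate (1.16%) and without LC3b-/- M (2.76%).

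Other genes of the organelle were counted from lists of genes linked to peroxisomes, outside the 34. Of 22 other peroxisomal lipid genes tested, 16 were lower, 9 of them at an unadjusted p under 0.05 in edgeR, and 2 of 6 higher genes passed it too, with a median log2 fold change of −0.30. The shares at that p were 40.9% lower and 9.09% higher, against 10.6% and 13.5% of all genes tested. Nudt19, a hydrolase of CoA, had a log2 fold change of −0.78 and Mlycd, which decarboxylates malonyl-CoA, one of −0.80 (edgeR adjusted p = 0.096 and 0.0967). Of 16 genes listed outside lipid metabolism, 11 were lower, 6 of them at an unadjusted p under 0.05 in edgeR (37.5%, against 10.6% of all genes). The other 5 were higher, 1 of them at that p (6.25%, against 13.5%). In this list Paox, a polyamine oxidase, was at −0.85 and Mpv17 at −0.51 (edgeR adjusted p = 0.096 and 0.102). Mpv17 is counted among these although its product is now placed in the mitochondrial inner membrane. The 4 fission genes that peroxisomes share with mitochondria had a median log2 fold change of −0.10, and none had an unadjusted p under 0.05, with Mff at −0.22 and Dnm1l at −0.07.

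Regulators of these genes had fold changes of both signs, 2 of 7 being lower. Ppara, the nuclear receptor that drives many peroxisomal genes in liver, had 3.80 to 5.46 CPM in WT and 2.54 to 4.37 CPM in LC3b-/-, a log2 fold change of −0.44 (SE 0.27, edgeR adjusted p = 0.355). Ppard, a related receptor, was at 0.44 (edgeR adjusted p = 0.121), and the coactivator gene Ppargc1a at −0.53 (adjusted p = 0.173), both without overlap between genotypes.

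Mitochondrial beta-oxidation takes over chains that peroxisomes have shortened. Of its 17 genes, 16 were lower and 8 at an unadjusted p under 0.05 in edgeR, with a median log2 fold change of −0.34 beside −0.33 for the 34 peroxisomal members. Of all genes tested, 48.8% were lower and 10.6% were lower at that p. Acadvl, the first dehydrogenase for long chains, had a log2 fold change of −0.47 and Etfb, which takes up its electrons, one of −0.64 (edgeR adjusted p = 0.116 and 0.125). No difference between the lists was tested.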

How the data were processed

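Libraries were 100-base single reads of polyadenylated RNA from a stranded kit. The authors quantified reads with Salmon against GENCODE vM26 transcripts (GRCm39) and summed them to genes with tximeta, and what they deposited are these estimated counts, as whole numbers with no scaling. Salmon's options are not given in the sources used here. Of 52740 identifiers, 51721 matched GENCODE vM39, which gave symbols, coordinates and transcript lengths.

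Counts were filtered (filterByExpr, 16990 genes), scaled with TMM and tested in R 4.3.3 with the quasi-likelihood test of edgeR 4.0.16, LC3b-/- against WT, p-values being adjusted over every tested gene after Benjamini and Hochberg. A call needed at least a 1.5-fold difference with an adjusted p under 0.05. The authors set these limits too, in their own comparison with DESeq2. Each SE was derived from the fit, as the size of the unshrunk log2 coefficient over the square root of the F statistic. CPM are on the TMM scale, and log2 CPM took a prior count of 2. Totals of 24495952 to 35616134 counts set the counting error, but the spread between the 4 and 3 mice was wider. Alternatives used DESeq2 1.42.0 and limma 3.58.1 and are described in the closing section. The code was tested on simulated data. Copies were found with BLAST 2.17.0 (at least 300 bases at 95% identity).

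The members, the gene lists and the tests were chosen with earlier results of these data known. Members were named where called, then the 12 with the smallest p whose genotypes did not overlap, then the one with the highest level per length in each role, and for other lists the 2 with the smallest p, with Ppara always named. Values of some genes outside the 34 are not reported here. All 7 columns of the table were used.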

Additional observations from a re-analysis of the deposited data

Results flagged for a closer look

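Among the 4 WT libraries, 1 of 45 values checked (34 members and 11 list sums) held a library far from the others. Acox2 had 1.43 to 1.5 CPM in WT F1, F2 and F3 and 1.96 CPM in WT M1, a gap of 0.879 of the whole range, which is above Dixon's 95% limit for 4 values. Chance alone passes this limit in about 1 of 20 groups. The 3 LC3b-/- libraries had 1.98 to 2.46 CPM.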

How the results depend on the processing

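The median log2 fold change of the 34 members stayed negative, between −0.41 and −0.28, under all 16 alternatives, and 25 to 28 members were lower in each. All 17 single members followed kept their direction in 275 comparisons, of which 12 brought a member past the call criterion. Most of the 17 were picked because their genotypes did not overlap in these data. Their kept direction was thus largely set by that choice and is no separate support. Among all 34, the sign turned under at least 1 alternative for 6 members: Far1, Acox3, Pex14, Hsd17b4, Pex7 and Crot. The number of members called was 0 in edgeR and moved to 5 with DESeq2, to 1 with limma's voom, to 1 without a filter on low counts and to 2 with sex as a covariate, and it ran from 0 to 2 when each library was left out in turn. An adjusted p alone, without a minimum fold change, also called 0. The number of members lower at an unadjusted p under 0.05, 15 in the fit reported, ran from 8 (without LC3b-/- F1, where 5.74% of all genes were) to 17 (without LC3b-/- M, 13.1%) when libraries were left out, and was 9 without WT M1 (6.53%), so that this count depends on single libraries. Females alone gave 10 and library size alone 11. The share of all genes was not computed for these settings, so the counts cannot be set against a background. Over all genes, 40 calls by edgeR stood beside 1810 by DESeq2, 124 by voom, 197 with sex as a covariate and 485 without LC3b-/- M, and the cause was not tested.

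The numbers F1 and F3 occur in both genotypes but belong to different mice. Deviations from the group means correlated at 0.146 for the F1 pair and 0.243 for the F3 pair across 16990 genes. Pairs of unlike numbers gave −0.06 and −0.418. With so few pairs these values do not establish a pairing, and none is a feature of the design. With this number as a replicate block on those 4 libraries, edgeR called 0 of all 17378 genes tested. That 0 members were called therefore says nothing about the members in particular. At an unadjusted p under 0.05, 6 members were lower and 0 higher, and the share of all genes was not computed. The median log2 fold change of the members was −0.35. The fit has fewer libraries.

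With 4 against 3 mice, no member passed the adjusted threshold in the edgeR fit reported. On the same libraries edgeR called 2 members with sex as a covariate and 1 without a filter on low counts. Errors in the fit reported were widest for Acaa1b and Abcd2 (SE 0.67 and 0.44). Bulk counts do not separate cell number from RNA per cell.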
